A study of Sus scrofa domesticus with 8 samples.

Results

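The integrin subunit genes ITGA2, ITGA4, ITGA5, ITGA8 and ITGB3 were followed in granulosa cells of the pig ovary before culture and during 144 h in culture. The members are the array features to which the platform annotation gives 1 of these 5 symbols. There were 7 such features among 27558, with 3 for ITGA2 and 1 for each other gene, and none was left out by a filter. Granulosa cells are the somatic cells that line the follicle and surround the oocyte. The donors were 43 gilts, crossbred Landrace pigs of a median 170 days and 98 kg. The medium of the cultured groups was DMEM with 2% fetal bovine serum, L-glutamine and antibiotics at 37 °C. RNA was isolated at the start (0 h) and after 48 h, 96 h and 144 h, with 2 arrays for each time and 8 altogether. The labels name no treatment other than culture and no line or clone, and they leave unsaid if both arrays of a time stem from different gilts, pooled cells or dishes. The p-values therefore cover the spread from array to array alone, which may be technical, and a batch that followed the times could not be told apart from time.

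Integrins are receptors in the cell membrane, each built of an alpha and a beta subunit, that bind matrix proteins outside the cell and are coupled to actin inside it through talin, kindlin and other adhesion proteins. The alpha 2, alpha 4, alpha 5 and alpha 8 subunits pair with beta 1, the product of ITGB1, and beta 3 pairs with alpha V or alpha IIb, the products of ITGAV and ITGA2B. Alpha 2 beta 1 is a collagen receptor, alpha 5 beta 1 the classical fibronectin receptor, alpha 4 beta 1 a receptor for VCAM1 and fibronectin, alpha 8 beta 1 a receptor for nephronectin and other RGD proteins, and alpha V beta 3 binds vitronectin, fibronectin and other RGD proteins. In the follicle granulosa cells lie inside a basal lamina, whereas plated cells attach to a flat surface and to the matrix they lay down.

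Levels are log2 intensities made by the authors by robust multi-array averaging (RMA), so a difference of 1 is a 2-fold difference. A level belongs to its own feature and was not set against that of another gene. The lower quartile of all features lay between 3.13 and 3.25 and the median between 4.52 and 4.63 on the 8 arrays. No detection call was used, so a level near the lower quartile is not shown to lie above background. The 0 h means of the members ran from 2.65 to 4.74, and differences from 0 h are therefore given on the log2 scale with no fold. Each difference has its standard error (SE) from limma's moderated test over all 8 arrays. Benjamini-Hochberg adjustment ran over all 27558 features, and below 0.05 a difference counts as called. Across features, correlations between both arrays of a time lay between 0.985 (144 h) and 0.997 (96 h). The means of 96 h correlated with those of 48 h at 0.957, below the 0.981 between 144 h and 48 h, so 96 h stood somewhat apart. The called members were the same in number at 144 h against 0 h (7) and against 48 h (4), and at 48 h against 0 h (6), when the 96 h arrays were left out of the fit. Of 16 granulosa markers 10 had a named feature, with a summed linear intensity of 13500 to 13800 at 0 h, 5780 to 5790 at 48 h, 4850 to 4910 at 96 h and 3850 to 3960 at 144 h. None of the 10 lay below the lower quartile at 0 h, but AMH did at 96 h and 144 h. At 144 h against 0 h, 8 of the 10 were called lower, WT1 was called higher (0.83) and ESR2 was not called. Of all features, 15.4% were called higher and 16.7% lower in that comparison. HSD17B1 differed by -6.63, and GJA1, a bright gene in the sum, by -0.37. Such bulk samples do not separate fewer cells of a type from less RNA per cell, and the 2 cannot be told apart here.

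All 7 features differed among the 4 times by the moderated F test, with adjusted p of at most 9.29e-05, where 47.5% of all features were called. They did so in 4 shapes. ITGA2 and ITGB3 were high by 48 h. ITGA5 was higher at each later time, in steps of 2.38, 1.45 and 0.71. The means of ITGB3 and ITGA8 were also higher at each later time, but mostly through 1 step, of 4.90 and 4.36. ITGA8 was high only from 96 h on. ITGA4 was highest at 96 h and lower at 144 h. These shapes describe the means, and the tests of each step follow.

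**Figure D1:**
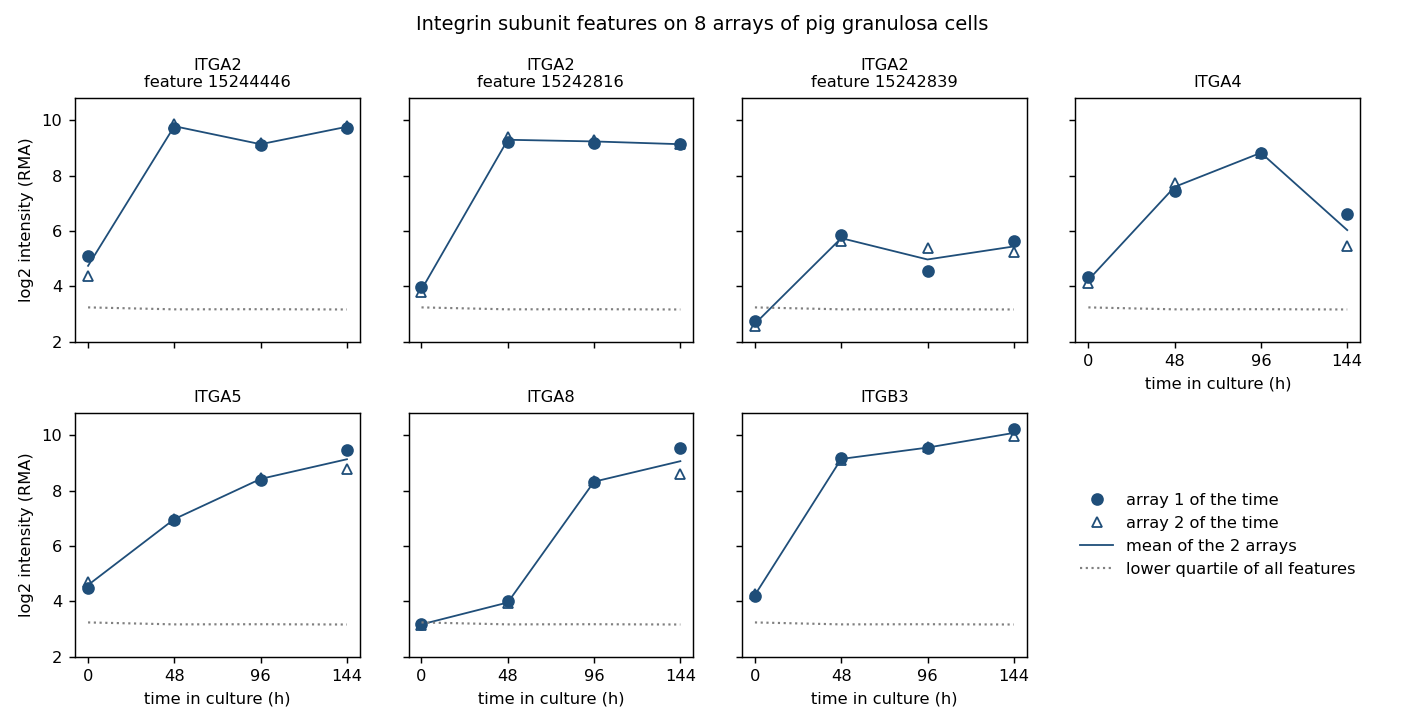
The log2 intensity (vertical axis) of each of the 7 integrin features is plotted against the time in culture (horizontal axis, in h), with the 2 arrays of a time as separate points, their mean as a line and the mean lower quartile of all features as a dotted line. ITGB3 and ITGA2 are high at 48 h, ITGA8 only from 96 h, and the 2 arrays at 144 h lie farthest apart for ITGA4, at 6.61 and 5.46.

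ITGB3, the beta 3 subunit gene, had log2 levels of 4.20 and 4.27 at 0 h, 9.16 and 9.12 at 48 h, 9.54 and 9.56 at 96 h and 10.21 and 9.96 at 144 h. No array of one time overlapped with those of another, and each later time lay higher. At 48 h the mean was 9.14, against 4.23 at 0 h, a difference of 4.90 ± 0.12 (SE, n = 2 per time, limma adjusted p = 3.52e-07). The later steps were small beside it. ITGB3 at 96 h was 1.33-fold its 48 h level, a difference of 0.41 ± 0.12 (adjusted p = 0.0325), and at 144 h it was 1.45-fold its 96 h level, a difference of 0.53 ± 0.12 (adjusted p = 0.0152). Over both steps the 144 h level was 1.93-fold the 48 h level (0.95 ± 0.12, adjusted p = 0.0025). The call at 96 h against 48 h was lost without any 1 of the 6 arrays of 0 h, 48 h and 96 h, with adjusted p between 0.0515 and 0.163, and that at 144 h against 96 h was lost without 96 h replicate 1 (0.11) or replicate 2 (0.0947) and in a fit of only the 4 arrays (0.0566).

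ITGA2, the alpha 2 subunit gene, was measured by 3 features, and each of them was called higher at 48 h, at 96 h and at 144 h than at 0 h. Feature 15244446, the one used where 1 feature stands for the gene, had levels of 5.11 and 4.37 at 0 h, 9.71 and 9.85 at 48 h, 9.09 and 9.16 at 96 h and 9.73 and 9.78 at 144 h. Its 0 h arrays lay 0.74 apart, far less than the 5.04 ± 0.21 between 48 h and 0 h (adjusted p = 2.62e-06). Feature 15242816 had 3.96 and 3.79 at 0 h, 9.20 and 9.39 at 48 h, 9.19 and 9.28 at 96 h and 9.13 and 9.14 at 144 h, with a difference at 48 h of 5.42 ± 0.12 (adjusted p = 3.52e-07). Feature 15242839 had 2.74 and 2.57 at 0 h, 5.84 and 5.65 at 48 h, 4.57 and 5.37 at 96 h and 5.64 and 5.25 at 144 h. Its 0 h arrays lay below the lower quartile, and its difference at 48 h was 3.09 ± 0.25 (adjusted p = 5.81e-05).

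After 48 h no ITGA2 feature was called in any comparison of later times, but the 3 features did not give the same picture of 96 h. At 96 h against 48 h, feature 15242816 differed by -0.06, with a 95% interval of the difference from -0.34 to 0.22. The other features differed by -0.66 (-1.15 to -0.16, adjusted p = 0.0528) and -0.77 (-1.36 to -0.19, adjusted p = 0.0513). Both lay just outside the threshold, and both were called lower when dim features were left out (adjusted p = 0.0406 and 0.0388) and with eBayes trend and robust (0.0402 and 0.0488). Feature 15242839 was also called lower without either 144 h array (0.0413). At 144 h against 48 h the differences were -0.03 (-0.52 to 0.47), -0.16 (-0.44 to 0.12) and -0.30 (-0.88 to 0.28). All 3 intervals leave out a 2-fold change between 48 h and 144 h in either direction. Without 1 of the 0 h arrays, feature 15244446 was called lower at 96 h than at 48 h and higher at 144 h than at 96 h (adjusted p = 0.0072 and 0.0121, the same without either 0 h array), fits in which the 0 h time adds nothing to the spread. Feature 15242839 had arrays of 4.57 and 5.37 at 96 h, and without the second of them 96 h differed from 48 h by -1.17 (adjusted p = 0.012) and 144 h from 96 h by 0.87 (adjusted p = 0.0478).

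ITGA5, the alpha 5 subunit gene, had levels of 4.48 and 4.70 at 0 h, 6.95 and 6.98 at 48 h, 8.39 and 8.45 at 96 h and 9.47 and 8.79 at 144 h. Both arrays of every time lay above both of the time before. The means were 6.97 at 48 h, against 4.59 at 0 h, and the difference was 2.38 ± 0.20 (adjusted p = 7.49e-05). ITGA5 rose further to 2.74-fold at 96 h against 48 h (1.45 ± 0.20, adjusted p = 0.0013). At 144 h it was 4.48-fold its 48 h level (2.16 ± 0.20, adjusted p = 0.000757). The last step, 0.71 ± 0.20 at 144 h against 96 h, was called at an adjusted p of 0.0405. This last call was lost without any 1 array except 144 h replicate 2, with adjusted p between 0.0606 and 0.187, with each array centred on its median (0.0567) and in a fit of only the 4 arrays (0.107). The 144 h arrays lay 0.67 apart, and the step was 0.38 without 144 h replicate 1 and 1.05 without replicate 2.

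ITGA8, the alpha 8 subunit gene, had levels of 3.17 and 3.16 at 0 h, 4.00 and 3.93 at 48 h, 8.30 and 8.35 at 96 h and 9.54 and 8.59 at 144 h. The 0 h arrays lay just below the lower quartile and the 48 h arrays above it but below the median of all features. At 48 h the mean was 3.96, against 3.17 at 0 h, a difference of 0.80 ± 0.26 that just missed the threshold (adjusted p = 0.0504). It was called in 6 of the 9 other settings of normalization, filter, model or threshold, with adjusted p between 0.00271 and 0.0484. With 1 array left out, the difference lay between 0.77 and 0.83. It was called without either 144 h array but stayed uncalled without any 1 of the 0 h, 48 h and 96 h arrays. Between 48 h and 96 h ITGA8 rose to a mean of 8.32, a difference of 4.36 ± 0.26 (adjusted p = 2.9e-05). No fold is given, as the 48 h mean of 3.96 was low and no detection call was used. This was the largest step of any member after 48 h. The 144 h mean was 9.06, and the difference from 96 h was 0.74 with an interval from 0.14 to 1.34 (adjusted p = 0.0809). Without 144 h replicate 2 that difference was 1.21 and was called (adjusted p = 0.000655), and without replicate 1 it was 0.26.

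ITGA4, the alpha 4 subunit gene, had levels of 4.35 and 4.12 at 0 h, 7.45 and 7.74 at 48 h, 8.82 and 8.82 at 96 h and 6.61 and 5.46 at 144 h. Every 144 h array lay above the 0 h arrays and below the 48 h and 96 h arrays. At 48 h the difference from 0 h was 3.36 ± 0.32 (adjusted p = 0.000127) and at 96 h it was 4.59 ± 0.32 (adjusted p = 1.27e-05). ITGA4 fell to a mean of 6.03 at 144 h, against 8.82 at 96 h, a difference of -2.79 ± 0.32 (adjusted p = 0.000842) that leaves 0.145 of the 96 h level. It was still higher at 144 h than at 0 h, by 1.80 ± 0.32 (adjusted p = 0.003). Of the 7 features, ITGA4 alone was called lower at 144 h than at 96 h or than at 48 h (-1.56 ± 0.32, adjusted p = 0.0208).

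The 2 arrays of 144 h disagreed on the size of the fall in ITGA4 but not on its direction. They lay 1.15 apart, and only 1.13% of all features had 144 h arrays at least this far apart. Without 144 h replicate 1 the difference at 144 h against 96 h was -3.36, and without replicate 2 it was -2.21, and both were called. Against 0 h the difference was 1.23 without 144 h replicate 1 and 2.38 without replicate 2, both called too. The call at 144 h against 48 h was lost without 48 h replicate 1 (adjusted p = 0.0829) or replicate 2 (0.127) and in a fit of only the 4 arrays (0.107). The smaller rise at 96 h against 48 h, 1.23 ± 0.32 (adjusted p = 0.0218), was lost without any 1 of the 48 h and 96 h arrays, with adjusted p between 0.0588 and 0.12.

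**Figure D2:**
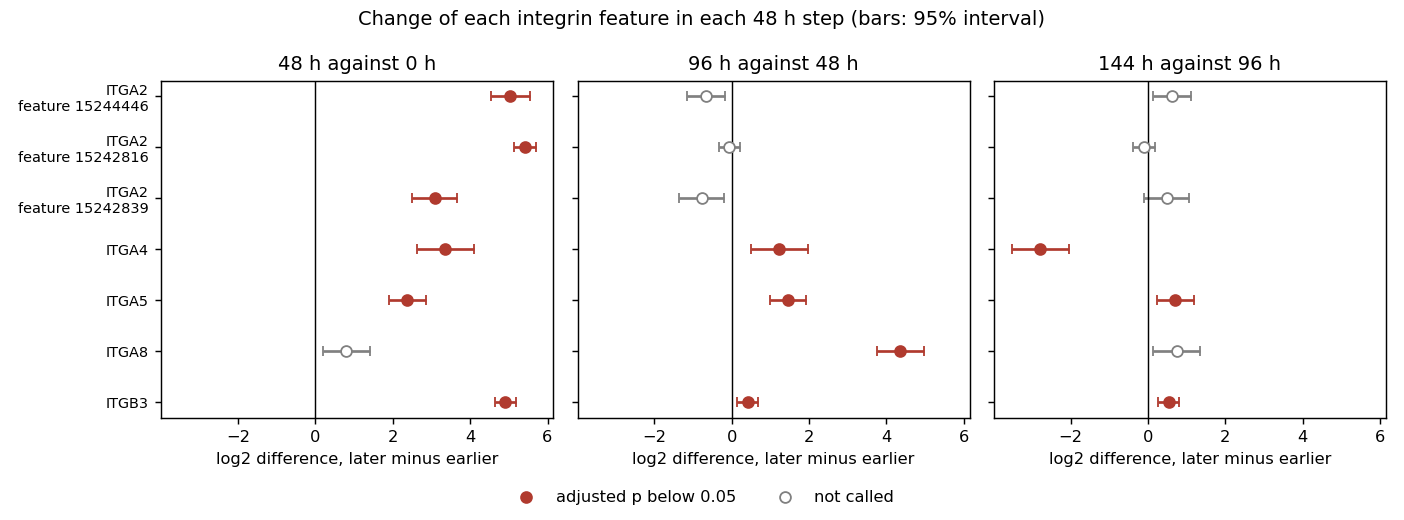
Each point is the log2 difference of an integrin feature between a time and the one before it (horizontal axis, later minus earlier), the bar is its 95% interval from the limma model over 8 arrays, and filled points passed the adjusted threshold. The intervals are not adjusted for the number of features, so some open points have intervals that leave out 0. The first step is between 2.38 and 5.42 for every feature but ITGA8, whose largest step is 4.36 between 48 h and 96 h, and ITGA4 stands at -2.79 in the last step.

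Counted over the members, 6 of 7 features were called higher at 48 h than at 0 h, where 15.2% of all features were higher and 14.8% lower, and ITGA8 was the exception. All 7 were called higher at 96 h than at 0 h, beside 19.0% of all features higher and 22.3% lower. All 7 were higher at 144 h than at 0 h too, beside 15.4% of all features higher and 16.7% lower. These comparisons share the 0 h arrays, and 3 of the 7 features are of ITGA2. With 1 feature per gene, 4 of the 5 genes were called higher at 48 h and all 5 at 96 h and 144 h. At 96 h against 48 h, ITGA4, ITGA5, ITGA8 and ITGB3 were called higher and none lower, and 13.4% of all features were called higher and 16.0% lower. At 144 h against 48 h, 3 were higher, namely ITGA5, ITGA8 and ITGB3, and ITGA4 was lower, with 4.32% of all features higher and 4.32% lower. At 144 h against 96 h, ITGA5 and ITGB3 were higher and ITGA4 was lower, with 12.1% of all features higher and 10.1% lower. The median difference of the 7 features was 3.36 at 48 h, 4.59 at 96 h and 5.01 at 144 h against 0 h, beside -0.04, -0.03 and -0.05 over all features.

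Most other integrin subunits moved less than the members other than ITGA4 at 144 h, with 1 exception. The members were chosen with earlier results of these data known, so this contrast is no test. The smallest ITGA2 difference at 144 h against 0 h was 2.79, for feature 15242839. Besides the members, 14 integrin genes had a named feature. Of these, 8 were called higher and 1 was called lower at 144 h against 0 h, beside 15.4% and 16.7% of all features, with a median difference of 0.74. The exception was ITGA11, which encodes the alpha 11 subunit of a collagen receptor. Its levels were 3.90 and 3.73 at 0 h, 6.91 and 6.94 at 48 h, 8.99 and 8.98 at 96 h and 8.98 and 8.94 at 144 h. Its arrays at 96 h and 144 h lay close together, about 2 above those of 48 h. ITGA11 differed from 0 h by 3.11 at 48 h (adjusted p = 1.08e-06) and by 5.15 at 144 h (adjusted p = 9.57e-08), which lies within the range of the members.

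Of the partner subunits, ITGB1 and ITGAV were called higher and ITGA2B was called lower. ITGB1, whose product pairs with all 4 alpha subunits among the members, had levels of 10.19 and 10.22 at 0 h, 11.00 and 10.95 at 48 h, 11.52 and 11.54 at 96 h and 11.35 and 11.22 at 144 h. No array of a later time overlapped with those of 0 h, and ITGB1 was higher by 1.08 at 144 h than at 0 h (adjusted p = 0.000119). ITGAV, the alpha V partner of beta 3, was higher by 1.31 at 144 h than at 0 h (adjusted p = 9.74e-05), or by 2.00 by its other feature, which is more than the 1.80 of ITGA4. ITGA2B, the platelet partner of beta 3, was the 1 gene called lower, by -0.55, at a mean level of 3.94 at 144 h, against 4.49 at 0 h, and is named after its value was seen. The collagen and laminin receptor gene ITGA1 was higher by 2.35, the alpha V partner genes ITGB8 and ITGB5 by 1.57 and 0.90, ITGB7, whose product pairs with alpha 4, by 1.11, and the leukocyte integrin gene ITGAL by 0.57. ITGA6, a laminin receptor subunit also named after its value was seen, was lower by 0.67 at 48 h than at 0 h and was not called at 144 h.

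**Figure D3:**
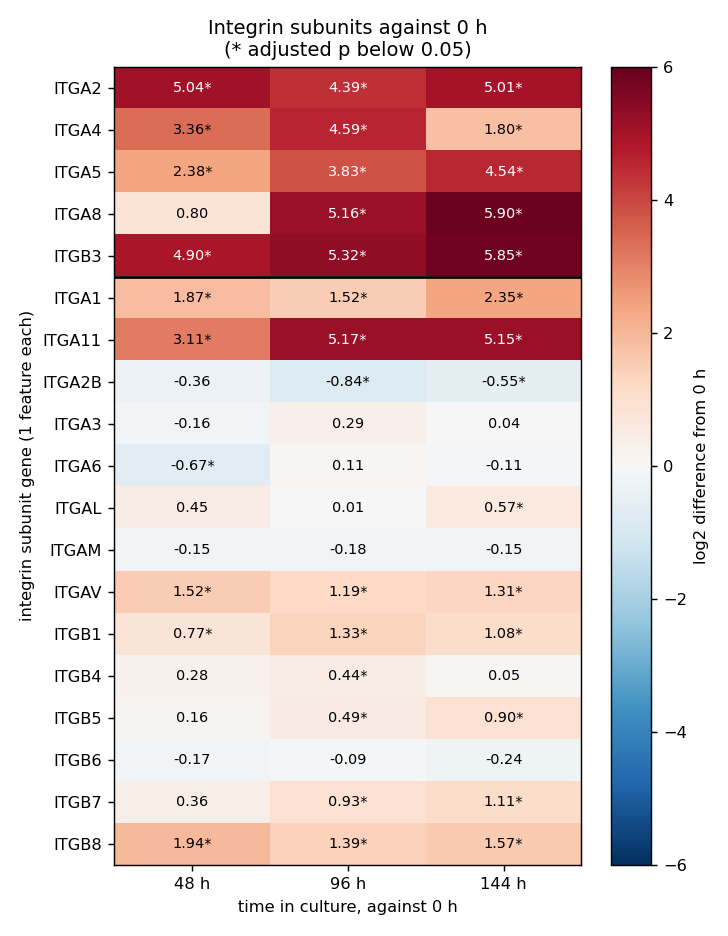
Log2 differences from 0 h (colour and printed value) at 48 h, 96 h and 144 h are shown for 19 integrin subunit genes with 1 feature each, the 5 members above the line and the other 14 below it. An asterisk marks an adjusted p below 0.05. The members other than ITGA4 stand between 4.54 and 5.90 at 144 h, and of the genes below the line ITGA11 alone reaches that range, at 5.15.

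Genes whose products bind integrins from outside were mostly higher. Of 43 listed integrin ligand genes 28 had a named feature, and 19 of these were called higher at 144 h against 0 h and 4 lower, with a median difference of 1.30. Over all features, which serve as the background of this and the following lists, 15.4% were higher and 16.7% lower, with a median difference of -0.05. FN1, the fibronectin gene, was higher by 6.10 ± 0.13 and POSTN, the gene of the matrix protein periostin, by 6.47 ± 0.13 (adjusted p = 9.57e-08 for both). COL1A1, a collagen I chain gene, was higher by 5.96 ± 0.19, and LAMB1, a laminin beta chain gene, by 5.31 ± 0.11. The 4 that fell, named after their values were seen, were LAMA2 (-3.78), SPP1 (-1.96), LAMB2 (-1.22) and COL4A2 (-1.08). Between 48 h and 96 h FN1 and POSTN ran opposite ways. FN1 was higher by 0.90 at 96 h than at 48 h (adjusted p = 0.0013), while POSTN was lower by 1.69 (adjusted p = 8.21e-05). POSTN was then higher by 1.59 at 144 h than at 96 h (adjusted p = 0.000227), and FN1 differed by 0.06 (adjusted p = 0.809).

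Genes acting on the cytoplasmic side rose as well. Of 51 listed genes of talin, kindlin and focal adhesion proteins 23 had a named feature, and 17 were called higher and none lower at 48 h, against 0 h, beside 15.2% and 14.8% of all features. At 144 h these counts were 18 and 2, with a median difference of 1.59. ACTN1, whose product alpha-actinin cross-links actin at adhesions, was higher by 4.27 ± 0.10 at 144 h. FHL2, a LIM protein gene of adhesions, was higher by 3.17 ± 0.15, the kindlin 1 gene FERMT1 by 2.73 ± 0.14 and LIMS1, a partner of integrin-linked kinase, by 2.72 ± 0.13. FERMT1 had its highest mean at 96 h, 6.33, and was lower by 0.99 at 144 h than at 96 h (adjusted p = 0.00247), and its 0 h mean of 2.61 lay below the lower quartile. The genes called lower at 144 h, named after their values were seen, were CRKL (-0.49) and TNS4 (-0.48).

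Of 21 listed genes of integrin inhibitors and traffic 12 had a named feature, and at 144 h against 0 h 7 were called higher and NISCH, named after its value was seen, lower. DAB2, an endocytic adaptor that takes up integrins, was higher by 3.96 ± 0.11, RAB21, a small GTPase of integrin traffic, by 1.69 ± 0.20, STARD13 by 1.55 ± 0.21 and ARF6, a GTPase of membrane recycling, by 1.04 ± 0.18. RAB21 had its highest mean at 96 h, 9.59, and was lower by 1.21 at 144 h than at 96 h (adjusted p = 0.00427). Of 21 listed surface partner genes 16 had a named feature, and at 144 h against 0 h 13 were called higher and KDR, named after its value was seen, lower. CAV1, the caveolin 1 gene, was higher by 4.81 ± 0.12, the hyaluronan receptor gene CD44 by 3.87 ± 0.12, THY1, whose product is a ligand of beta 3 integrins, by 3.57 ± 0.31, and the growth factor receptor gene PDGFRB by 2.32 ± 0.11.

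**Figure D4:**
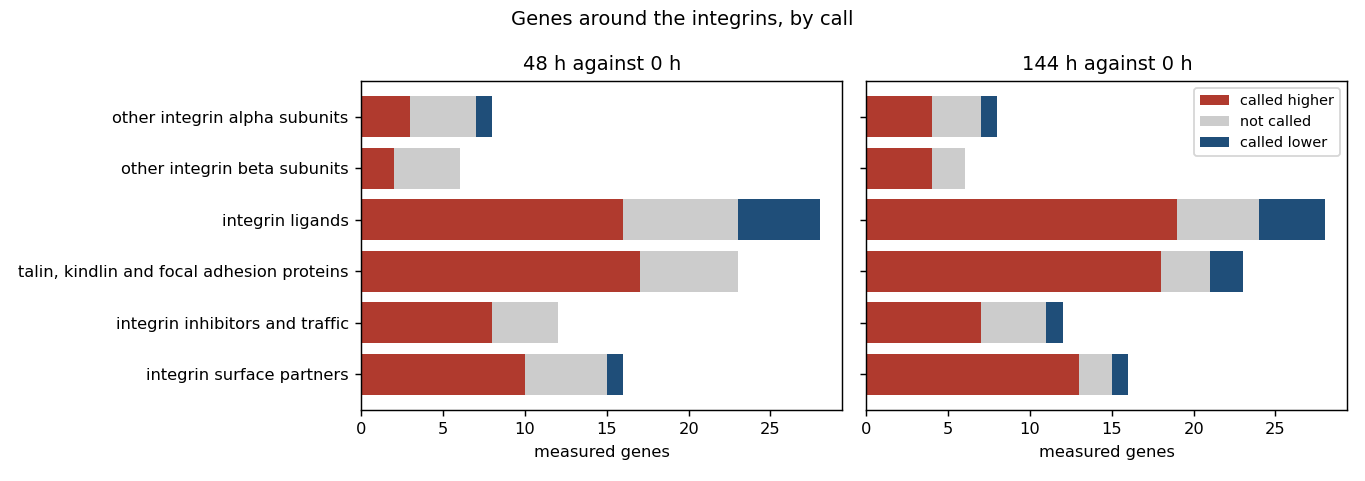
For each of 6 gene lists (rows), stacked bars give the number of measured genes (horizontal axis) called higher, not called or called lower at 48 h and at 144 h against 0 h, with the 5 members left out of the subunit lists. Called higher at 144 h are 19 of 28 integrin ligand genes and 18 of 23 genes of talin, kindlin and focal adhesion proteins.

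Marker genes of other cell types were examined beside these rises. Of 13 markers of theca and stromal fibroblasts 8 had a named feature, and their summed linear intensity was 315 to 340 at 0 h, 1850 to 1870 at 48 h, 5030 to 5130 at 96 h and 7520 to 9440 at 144 h. COL1A1, DCN, LUM, THY1 and PDGFRB were called higher at 144 h than at 0 h, and NR2F2 was not called (-0.02). Of these, COL1A1 was also counted among the integrin ligand genes, and THY1 and PDGFRB among the surface partner genes. The theca marker CYP17A1 lay below the lower quartile at all 4 times. INSL3 was lower at 144 h, with a mean of 4.16, against 5.76 at 0 h. Of 9 smooth muscle and pericyte markers 6 had a named feature, with sums of 557 to 613, 4200 to 4600, 7850 to 8280 and 7400 to 7620 at the same times. Of these 6, 4 were called higher at 144 h against 0 h, namely ACTA2, CNN1, TAGLN and CSPG4, and MCAM was not called. The pericyte marker RGS5 was lower by 0.64 at 144 h than at 0 h (adjusted p = 0.0329), after a mean that was higher by 2.22 at 48 h than at 0 h. The sums of both lists were higher at each later time than at 0 h, and so were the means of every member feature. Of the members, ITGA8 was not called at 48 h. The smooth muscle sum was lower at 144 h than at 96 h. The part of these cell types in the results was not tested.

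The other marker lists differed in direction. Of 18 leukocyte markers, 12 had a named feature, with sums of 473 to 510 at 0 h, 430 to 506 at 48 h, 313 to 335 at 96 h and 321 to 371 at 144 h. ITGA4 is also a leukocyte gene. Its mean was highest at 96 h. There, 7 of the 12 leukocyte markers were called lower than at 0 h and 2 higher, beside 22.3% and 19.0% of all features. The pan-leukocyte gene PTPRC was among the lower, with a mean of 3.69 at 96 h, against 4.44 at 0 h. Those called higher were LYZ, the lysozyme gene, by 1.75 (adjusted p = 7.99e-05), and CD14, by 0.76 (adjusted p = 0.00546). LYZ had its highest mean at 96 h, as ITGA4 did, with 7.02 there, and 6.47 at 144 h. ITGAM and AIF1 lay below the lower quartile at all times. Of 10 platelet and megakaryocyte markers, 6 had a named feature, with sums of 78.4 to 79.7, 120 to 124, 212 to 215 and 174 to 244 at the same times. Of these 6, F5 alone was called higher than at 0 h at 48 h, 96 h or 144 h. The F5 mean was 3.54 at 0 h and 7.29 at 96 h. At 144 h ITGA2B was called lower and 4 were not called, and PPBP lay below the lower quartile throughout. Of 13 endothelial markers 6 had a named feature, with sums of 84.4 to 91.5, 101 to 103, 83.5 to 88.7 and 93.2 to 107, and TEK lay below the lower quartile at all times. At 144 h against 0 h PECAM1 was called higher (1.14), FLT1 (-0.95) and KDR (-0.66) were called lower, and 3 were not called. Of 10 markers of the ovarian surface epithelium 5 had a named feature, with sums of 82.1 to 105, 535 to 598, 207 to 209 and 227 to 598. At 48 h, 4 of the 5 were called higher than at 0 h and none lower, beside 15.2% and 14.8% of all features. They were the keratin genes KRT19, by 3.88 (adjusted p = 0.00081), and KRT8, by 1.75, with UPK1B, by 1.14, and EPCAM, by 0.65. At 144 h KRT19 and KRT8 were called higher than at 0 h, by 2.62 and 2.41. KRT19 was not called at 96 h against 0 h (1.30, adjusted p = 0.0802), and its 144 h arrays were 6.46 and 8.39. EPCAM lay below the lower quartile at 0 h, 96 h and 144 h. Of 12 oocyte markers 6 had a named feature, with sums of 288 to 338 at 0 h and 90.1 to 106 later. The part of these lists in the results was not tested either.

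The genes whose course was most like that of each member were sought among 10688 named genes other than integrins, by the root mean square difference over the 8 arrays after each feature was centred on its own mean. For ITGA5 the nearest was VCAM1, at 0.142, then STEAP2, at 0.187, and COL3A1, at 0.19. VCAM1, whose product is a ligand of alpha 4 beta 1, had levels of 3.98 and 4.32 at 0 h, 6.83 and 6.76 at 48 h, 8.24 and 8.23 at 96 h and 9.01 and 8.68 at 144 h, so its first array was also the higher at 144 h. For ITGB3 the nearest were FN1, at 0.266, the actin-binding protein gene TAGLN, at 0.275, and MSRB3, at 0.309. For ITGA2 they were PCOLCE2, at 0.269, whose product enhances procollagen processing, IGFBP5, at 0.278, and the oncostatin M receptor gene OSMR, at 0.344.

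ITGA8 and ITGA4 had less close neighbours. ITGA8 was nearest to ANPEP, the aminopeptidase N gene, at 0.376, to LOC100513296, at 0.442, and to COL15A1, at 0.485. ANPEP had levels of 3.72 and 3.75 at 0 h, 4.87 and 4.89 at 48 h, 8.22 and 8.21 at 96 h and 9.84 and 9.21 at 144 h. ITGA4 was nearest to KITLG, the KIT ligand gene, at 0.562, to S100A4, at 0.573, and to MMD, at 0.694. KITLG had levels of 3.80 and 3.51 at 0 h, 6.18 and 6.11 at 48 h, 6.66 and 6.70 at 96 h and 5.27 and 4.04 at 144 h, so its 2 arrays at 144 h were also far apart, with the second the lower. These distances describe the 8 arrays and carry no test.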

How the data were processed

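RNA of porcine granulosa cells was labelled with biotin and fragmented for Affymetrix whole-transcript arrays, per the labels' protocols. The deposited table holds log2 intensities that the authors made by RMA, per the submitters' processing notes. Which software and settings ran RMA is not given in the sources used here. RMA brings the arrays to nearly 1 distribution, which would hide a shift common to most genes. The table had 27558 features and no missing value, and was used as deposited. The precision is limited by the number of arrays, 2 per time.

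Groups and replicate numbers came from the sample titles, and no label gave a batch. Features were named through GEO's platform annotation: 11735 had 1 symbol, 612 several and 15211 none in the table used, and 6 old symbols were replaced by way of Entrez identifiers. Where 1 feature stood for a gene, it was the one with the highest mean. The annotation's genome build was not stated, so no coordinates are printed.

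The fit, in R 4.3.3 with limma 3.58.1, gave each time its own mean over the 8 arrays, and eBayes moderated the variances (4 residual and 3.98 prior degrees of freedom). All 6 pairs of times were tested two-sided, and the 4 times by the F test. On simulated arrays over 27558 features with 200 changed, tested at 48 h against 0 h, 58.8% of log2 changes of 1 and 92.4% of changes of 2 were recovered, and 4.19% of calls were false. The simulated noise was independent between arrays and features. In the real comparison 8260 features were called, so these rates may not carry over to it. Members and gene lists were chosen with earlier results of these data known. The text names every member feature, up to 8 other subunits and up to 4 genes per list by the size of change at 144 h against 0 h, and 3 genes most alike per member. Alternatives were other normalizations, a filter on dim features, other variance models, thresholds, the replicate number as a block and leaving out each array.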

Additional observations from a re-analysis of the deposited data

How the results depend on the processing

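The counts of called members at 48 h, 96 h and 144 h against 0 h and at 144 h against 48 h stayed within 1.5 times their value in every setting run. At 96 h against 48 h, 4 members were called, 2 at an adjusted p below 0.01, and 2 to 5 with 1 array left out. At 144 h against 96 h, 3 were called, 1 at an adjusted p below 0.01, 1 at a fold of at least 2, and 1 to 4 with 1 array left out. Left-out arrays gave 2 without 48h replicate 1, 48h replicate 2 or 96h replicate 1 in the first of these, and 1 without 96h replicate 1 in the second. In 756 repeats of single members' differences, 692 kept direction and call, 35 lost the call and 25 gained it. The direction turned in 4, all uncalled and near 0: for ITGA2 feature 15242816 at 96 h against 48 h, 0.04 after cyclic loess and -0.15 to 0.04 with 1 array left out, and for ITGA2 feature 15244446 at 144 h against 48 h, 0.01 and -0.10 to 0.04. Both turned without 48h replicate 2, and the cause was not tested.

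The replicate number as a block gave 7, 7, 7, 4, 4 and 2 called members at 48 h, 96 h and 144 h against 0 h, 96 h and 144 h against 48 h, and 144 h against 96 h. It moved ITGA8 at 48 h (adjusted p = 0.0436) and ITGA5 at 144 h against 96 h (0.0507) across the threshold. The differences between the first and second array of a time correlated between times at -0.0382 to 0.188. Such correlations cannot show if same-numbered arrays share gilts, pools or dishes. Over all features, the calls at 144 h against 48 h ranged from 1070 to 3879 with 1 array left out, beside 2381, and were 1576 without the 96 h arrays, 825 in a fit of the 4 arrays, 1120 at an adjusted p below 0.01 and 865 at a fold of at least 2. At 96 h against 48 h they ranged from 4198 to 10294 with 1 array left out, beside 8089, and were 4688 and 2669 at the stricter threshold and the fold. At 144 h against 96 h they ranged from 2437 to 7320, beside 6115, and were 3033 and 1710. Against 0 h the fold left 3038 of 8260 at 48 h, 5147 of 11375 at 96 h and 3676 of 8845 at 144 h, and the stricter threshold 5147 at 48 h. With 1 feature for each of 10707 named genes, fewer features were counted, and the calls were 3636, 4810 and 3941 against 0 h, 3353 and 1116 for 96 h and 144 h against 48 h, 2470 for 144 h against 96 h and 5550 by the F test. The fits without the 96 h or the 144 h arrays were chosen after seeing the data. With 1 array of a time left out, the other is assumed to vary like the other times.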

Other observations

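The genes that lie beside the members were looked up in the RefSeq order of protein-coding genes (assembly Sscrofa11.1), a choice made after seeing the data. Of 20 genes within 2 places of a member, 9 had a named feature, and at 144 h against 0 h 4 of these were called higher and 2 lower. ITGA2 lies beside ITGA1 and within 2 places of PELO, MOCS2 and FST. At 144 h, ITGA1 differed from 0 h by 2.35, PELO by 1.12 and MOCS2 by 0.70, and all 3 were called higher (adjusted p = 1.89e-05, 0.000146 and 0.0368). FST, the follistatin gene, was lower by 4.32 (adjusted p = 4.79e-06), so a strong rise and a strong fall were measured within a few genes of each other. Beside ITGA8, FAM171A1 was higher by 1.11 (adjusted p = 0.000118), and beside ITGB3, MYL4 differed by 0.30 (adjusted p = 0.068).

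The other features of ITGAV, ITGA6 and ITGA3 are given here beside the main one. The second ITGAV feature was lower by 1.06 at 144 h than at 96 h (adjusted p = 0.00393), while the main one differed by 0.12 (adjusted p = 0.565). The second ITGA6 feature was higher by 0.65 at 96 h than at 0 h (adjusted p = 0.0012), and the main one differed by 0.11 (adjusted p = 0.584). Both ITGA6 features were called lower at 48 h than at 0 h, by 0.67 and 0.90, and higher at 96 h than at 48 h, by 0.78 and 1.55. Neither ITGA3 feature was called in any of the 6 comparisons.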
